A study of Mus musculus with 8 samples.

Results

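The Hox genes are homeobox genes that lie side by side in 4 clusters, HoxA to HoxD, in the mouse genome. In a table of 26667 genes, 39 have a symbol made of Hox, a cluster letter and a number. Of these, 38 are described here. The genes were taken by symbol and not by their measured values, but earlier results of these data were known. They were followed in RNA from bone-marrow-derived macrophages, cells grown out of marrow with the growth factor M-CSF. The Dnmt3a KO group (4 libraries) is labelled as a knockout of Dnmt3a, a DNA methyltransferase, and the WT group (4 libraries) is its control. Both are C57BL/6 cells taken at day 8 to 10, after growth in 30 ng/ml M-CSF and 10% serum. The labels name neither the allele nor the age of the mice. They also do not say if replicates are different animals, so a p-value here covers only the spread among libraries, which may be technical. The cultures are numbered 9 to 12 for Dnmt3a KO and 1 to 4 for WT with no batch named, so any order of preparation cannot be told apart from genotype.

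HOX proteins are transcription factors that set position along the body axis of the embryo. The genes of a cluster are numbered from its 3′ end, and genes with the same number in different clusters are paralogues. In blood, HoxA and HoxB genes are best known from stem cells and early progenitors, where they promote self-renewal and are turned down as cells mature. HOX proteins bind DNA together with cofactors of the PBX and MEIS families. MLL complexes keep Hox genes active and Polycomb complexes keep them silent.

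Library totals ran from 12614006 to 20801015 counts in Dnmt3a KO and from 15505309 to 28502631 in WT. Dnmt3a had 34.4 ± 3.69 CPM (read counts scaled to library size) in Dnmt3a KO and 161 ± 10.0 CPM in WT (SD, n = 4 each), 4.66-fold lower in Dnmt3a KO. Most macrophage markers were high in both genotypes: Csf1r, the M-CSF receptor gene, had 2061 ± 243 CPM in Dnmt3a KO and 2107 ± 99.4 CPM in WT. Mertk was the lowest of the 8 listed, with 7.12 ± 2.26 CPM in Dnmt3a KO and 4.88 ± 1.45 CPM in WT. Of 8 macrophage markers 0 were called by edgeR, 2 had an unadjusted p under 0.05, and DESeq2 called 1, Lyz2, higher. A gene was called at an adjusted p under 0.05 in edgeR's quasi-likelihood test over all 12507 genes that passed the filter on low counts. By that rule 49 genes, 0.392% of those tested, were lower in Dnmt3a KO and 152, or 1.22%, were higher, which is 1.61% in all.

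The macrophages held RNA of HoxA genes and, in HoxB, mainly of Hoxb4 and Hoxb3, while HoxC and HoxD were close to silent. The 38 genes together had 431 counts in Dnmt3a KO and 1047 counts in WT. HoxB held 72.7% of these counts over all libraries and HoxA 23.0%, against 2.71% for HoxC and 1.56% for HoxD. Most came from Hoxb4, with 65.6%, followed by Hoxa7 with 7.04% and Hoxb3 with 4.87%. Of the 38 genes only Hoxb4 passed the filter, and it was lower in Dnmt3a KO. Of the other 37 genes, 5 had no count in any library (Hoxa13, Hoxc12, Hoxd1, Hoxd11 and Hoxd12).

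**Figure D1:**
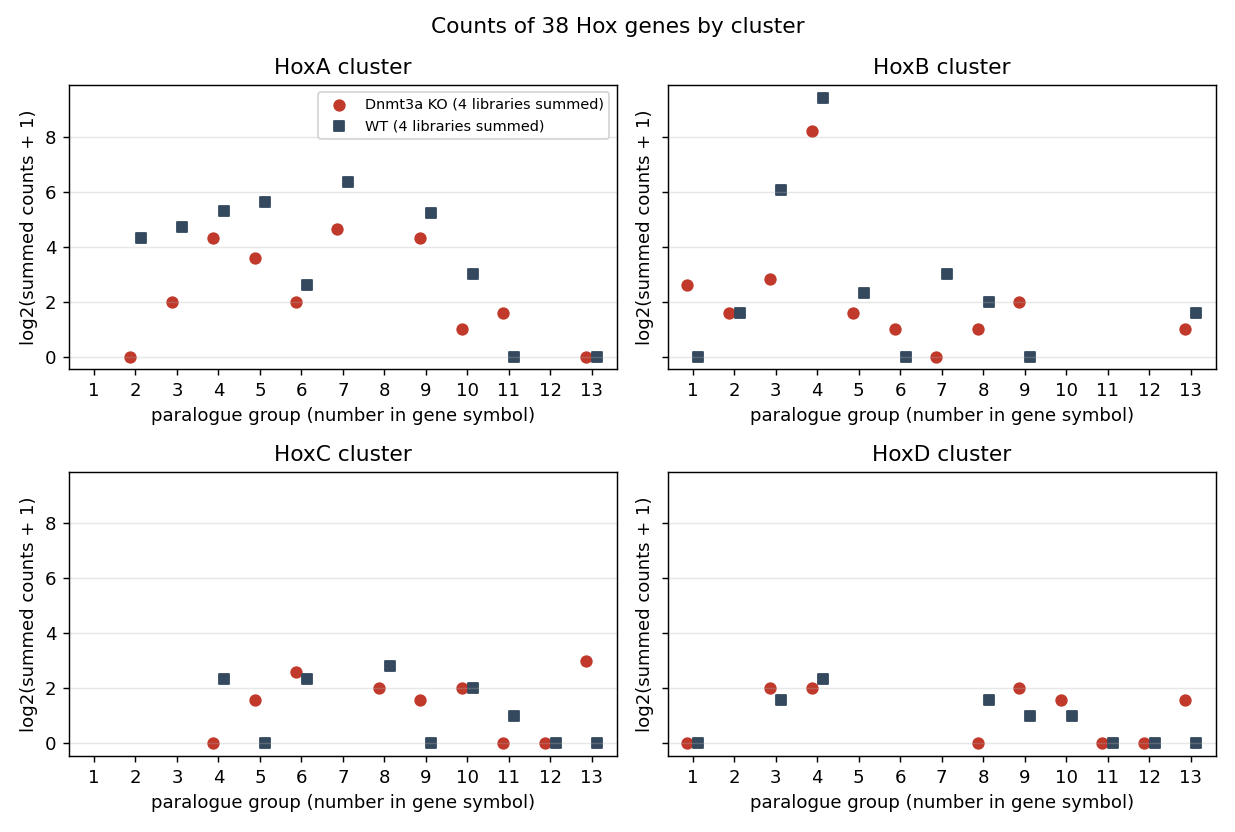
Summed counts of each of 38 Hox genes, on a log2 scale after adding 1, against the paralogue number, with 1 panel for each cluster. Circles are the 4 Dnmt3a KO libraries together and squares the 4 WT libraries together. The counts sit in Hoxa2 to Hoxa10 and in Hoxb3 and Hoxb4, and no HoxC or HoxD gene exceeds 9 counts over both genotypes.

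Summed over the 10 HoxA genes described, the level was 1.13, 0.827, 1.57 and 1.71 CPM in Dnmt3a KO replicates 1 to 4 and 3.37, 3.17, 3.51 and 3.32 CPM in WT replicates 1 to 4. The groups were far apart. The 10 HoxB genes summed to 4.96, 4.33, 6.54 and 4.32 CPM in Dnmt3a KO, against 11.7, 11.4, 10.2 and 7.84 CPM in WT, and again did not overlap. Without Hoxb4, the other 9 HoxB genes averaged 0.341 ± 0.239 CPM in Dnmt3a KO and 1.15 ± 0.457 CPM in WT as a sum. For HoxC the means were 0.339 ± 0.0804 CPM in Dnmt3a KO and 0.225 ± 0.0477 CPM in WT, and for HoxD 0.193 ± 0.0667 CPM in Dnmt3a KO and 0.133 ± 0.105 CPM in WT (SD, n = 4 each). One count was worth 0.0486 to 0.0787 CPM in a Dnmt3a KO library and 0.0345 to 0.0635 CPM in a WT library. The means of HoxC and HoxD were thus a few counts above 0 in both genotypes, and HoxD had 0 counts in WT replicate 2. These sums are descriptions and were not tested. In bulk RNA, fewer cells that carry a transcript and less transcript per cell cannot be told apart.

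Since Dnmt3a methylates cytosine in CG dinucleotides, the start regions of 3 HoxA and HoxB genes are shown, with every CG in capitals. They are the 250 bases before the start of Hoxb4, which was called, and of Hoxa5 and Hoxa2, which were lower in every Dnmt3a KO library than in any WT library and differ in how many CG they hold. The sequences are RefSeq's, build GRCm38.p6, given 5′ to 3′ on the gene's strand. Hoxb4 is at chr11:96318017-96318266 on the plus strand, and Hoxa5 at chr6:52204588-52204837 and Hoxa2 at chr6:52164832-52165081 are on the minus strand.
Hoxb4: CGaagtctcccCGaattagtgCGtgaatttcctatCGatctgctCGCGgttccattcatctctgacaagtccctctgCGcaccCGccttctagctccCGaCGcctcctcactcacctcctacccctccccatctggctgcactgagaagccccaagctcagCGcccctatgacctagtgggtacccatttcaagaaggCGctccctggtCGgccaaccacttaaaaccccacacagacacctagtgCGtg
Hoxa5: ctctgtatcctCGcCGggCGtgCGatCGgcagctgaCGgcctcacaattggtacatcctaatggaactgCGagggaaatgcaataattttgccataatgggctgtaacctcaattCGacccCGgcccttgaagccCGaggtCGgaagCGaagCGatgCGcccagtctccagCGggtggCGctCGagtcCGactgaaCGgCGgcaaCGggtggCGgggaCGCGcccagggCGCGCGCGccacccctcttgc
Hoxa2: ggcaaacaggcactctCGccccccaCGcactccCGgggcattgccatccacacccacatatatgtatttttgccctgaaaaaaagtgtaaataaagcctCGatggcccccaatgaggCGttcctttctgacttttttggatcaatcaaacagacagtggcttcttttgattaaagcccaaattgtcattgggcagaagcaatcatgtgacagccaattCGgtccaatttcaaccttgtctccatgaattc

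These stretches hold 14 CG for Hoxb4, 28 for Hoxa5 and 6 for Hoxa2. Of 32841 promoters of the same length, 70.6%, 92.4% and 49.6% hold fewer CG than the stretch of Hoxb4, Hoxa5 and Hoxa2, in that order. Over 24 Hox promoters, which belong to 22 of the 38 genes, the count ran from 2 to 35 with a median of 12.5, against a median of 6 over all promoters. Hoxb3 has none among the 24, and HoxC has only that of Hoxc4. The start of 20 of the 24 was found in a GENCODE transcript of the gene. The motif TGATNNAT, a joint site of HOX and PBX proteins, was searched on both strands. It is present in 4 of the 24 Hox promoters, that of Hoxa2 among them, and in 7.69% of all promoters. These are descriptions of letters, and DNA methylation was not analysed here.

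Hoxb4, a gene whose product expands blood stem cells when overexpressed, was the most abundant transcript of the 38. It had 4.58, 3.89, 5.98 and 4.32 CPM in Dnmt3a KO replicates 1 to 4, against 10.9, 9.59, 8.99 and 7.05 CPM in WT replicates 1 to 4. The highest Dnmt3a KO library stayed below the lowest WT library. Hoxb4 fell to 4.70 ± 0.906 CPM in Dnmt3a KO, against 9.12 ± 1.59 CPM in WT (SD, n = 4 each), which is 1.95-fold. The log2 fold change was -0.96 ± 0.20 (SE), with a 95% interval from -1.39 to -0.53 and an edgeR adjusted p of 0.0340. With 61 to 80 counts per Dnmt3a KO library and 151 to 204 per WT library, the call is close to the threshold. It was lost without Dnmt3a KO replicate 1, 2 or 4 and without WT replicate 2 or 3, with edgeR adjusted p from 0.0803 to 0.125.

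The call of the 1 gene tested cannot be read against the 0.392% of all tested genes that were called lower. All 38 genes can be compared by whether the libraries overlap, with no filter. In 6 of 38 genes, 15.8%, all 4 Dnmt3a KO libraries lay below all 4 WT libraries, and in 0 of 38 they all lay above. Of all 26667 genes, 2.23% were separated downward and 2.92% upward, and 9.4% of the tested genes were separated in either direction. The 6 genes were Hoxa2, Hoxa3, Hoxa5, Hoxa7, Hoxb3 and Hoxb4. Neighbouring genes of a cluster can share reads, so these are not 6 independent observations.

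**Figure D2:**
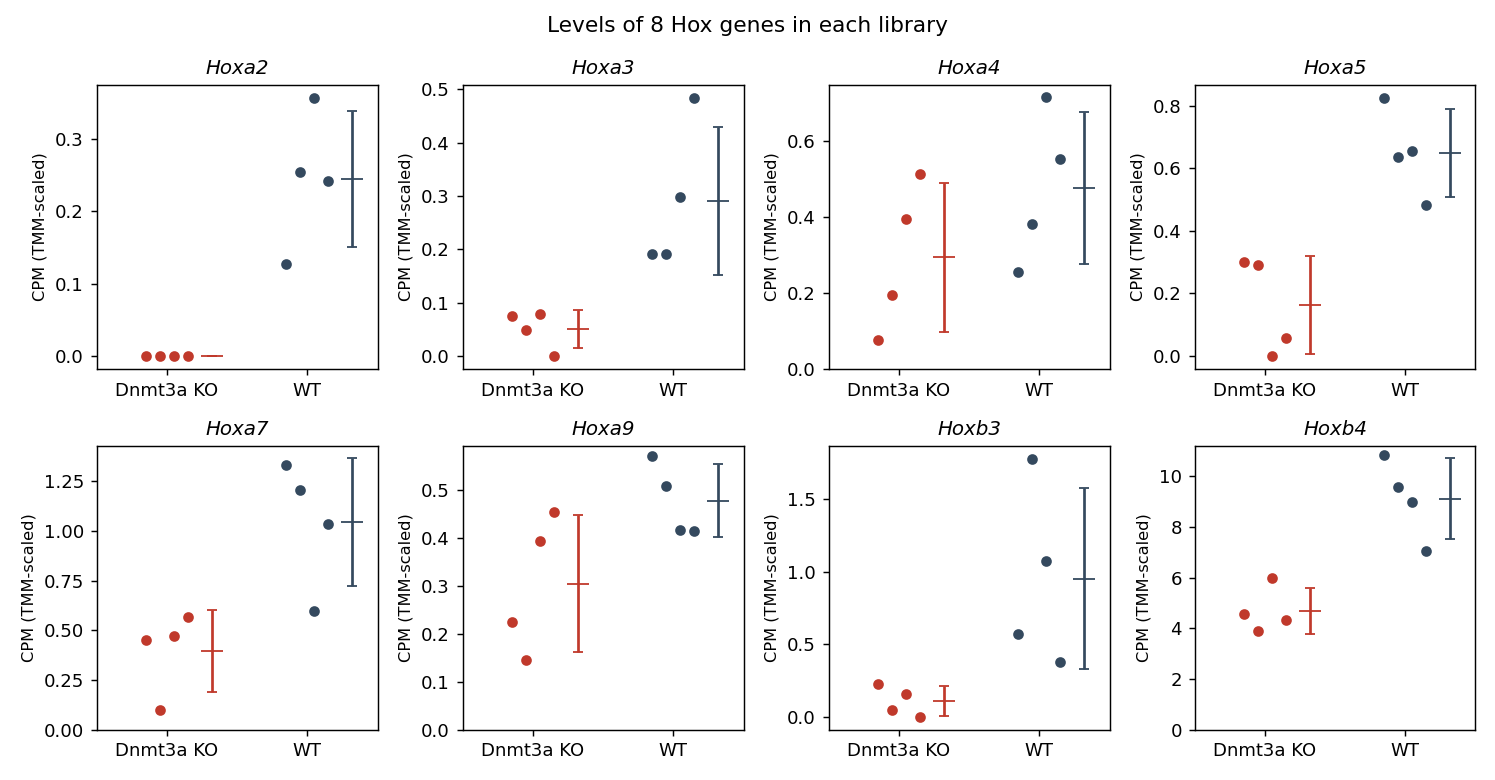
CPM of 8 Hox genes in each of the 8 libraries (points), with the mean and SD of 4 libraries for Dnmt3a KO and for WT. Each panel has its own linear axis. The libraries of the 2 genotypes do not overlap in Hoxa2, Hoxa3, Hoxa5, Hoxa7, Hoxb3 and Hoxb4, and they do in Hoxa4 and Hoxa9.

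Hoxb3, the 3′ neighbour of Hoxb4, was too sparse for the filter. It had 3, 1, 2 and 0 counts in Dnmt3a KO replicates 1 to 4 and 9, 28, 18 and 11 counts in WT replicates 1 to 4. That is 0.108 ± 0.102 CPM in Dnmt3a KO and 0.950 ± 0.624 CPM in WT, with a wide spread in WT. In the same edgeR test with no filter, where 1.82% of 21980 genes were called and 0.441% were lower, the log2 fold change was -3.17 with a 95% interval from -4.77 to -1.57 and an adjusted p of 0.0252. Hoxb4 was called in that fit too. The call of Hoxb3 was lost without Dnmt3a KO replicate 2 or 4 or WT replicate 2, with adjusted p up to 0.190. The RefSeq extent of Hoxb3 takes in all 3372 bases of Hoxb4, and 52.9% of its exon bases in GENCODE lie opposite Hoxb3os.

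The HoxA genes described were all below the filter. Hoxa2, which shapes the hindbrain and the second pharyngeal arch, had 0 counts in all 4 Dnmt3a KO libraries and 2, 4, 6 and 7 counts in WT replicates 1 to 4. Against a floor of 3 counts over the Dnmt3a KO group, the summed WT counts, scaled to library size, stood 5.26-fold higher. This ratio leaves out the counting error and spread of WT, so it is not a lower bound. With no filter the log2 fold change of Hoxa2 was -5.16, with a 95% interval from -8.32 to -1.999 and an edgeR adjusted p of 0.0962. With 0 counts in Dnmt3a KO, that value and its interval depend on how the fit treats a 0. Neither measures the size of the difference. Hoxa3, a gene needed for the thymus and parathyroid glands, had 1, 1, 1 and 0 counts in Dnmt3a KO and 3, 3, 5 and 14 counts in WT. Its adjusted p with no filter was 0.383, with a log2 fold change of -2.47 and a 95% interval from -4.63 to -0.30.

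Hoxa4 was not separated between the genotypes. It had 1, 4, 5 and 9 counts in Dnmt3a KO replicates 1 to 4 and 4, 6, 12 and 16 in WT replicates 1 to 4. Hoxa5, which guides lung development and is often methylated in tumours, had 4, 6, 0 and 1 counts in Dnmt3a KO, against 13, 10, 11 and 14 in WT. Its log2 fold change with no filter was -1.90, with a 95% interval from -3.41 to -0.39 and an edgeR adjusted p of 0.300. Hoxa6 had 3 counts in Dnmt3a KO and 5 in WT, and all 5 were in WT replicate 3.

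Hoxa7, Hoxa9 and Hoxa10 are the HoxA genes most often named in leukaemia with MLL fusions. Hoxa7 had 0.451, 0.0973, 0.472 and 0.569 CPM in Dnmt3a KO replicates 1 to 4 and 1.33, 1.21, 0.595 and 1.04 CPM in WT replicates 1 to 4. The groups were separated, narrowly between Dnmt3a KO replicate 4 and WT replicate 3. With no filter its log2 fold change was -1.41, with a 95% interval from -2.52 to -0.29 and an edgeR adjusted p of 0.298. Hoxa9 had 0.305 ± 0.144 CPM in Dnmt3a KO and 0.478 ± 0.0762 CPM in WT (SD, n = 4 each), and the libraries overlapped. Its log2 fold change with no filter was -0.64, with a 95% interval from -1.996 to 0.72. Hoxa10 had 1 count in Dnmt3a KO and 7 in WT. Hoxa11 had 2 counts in Dnmt3a KO and 0 in WT.

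**Figure D3:**
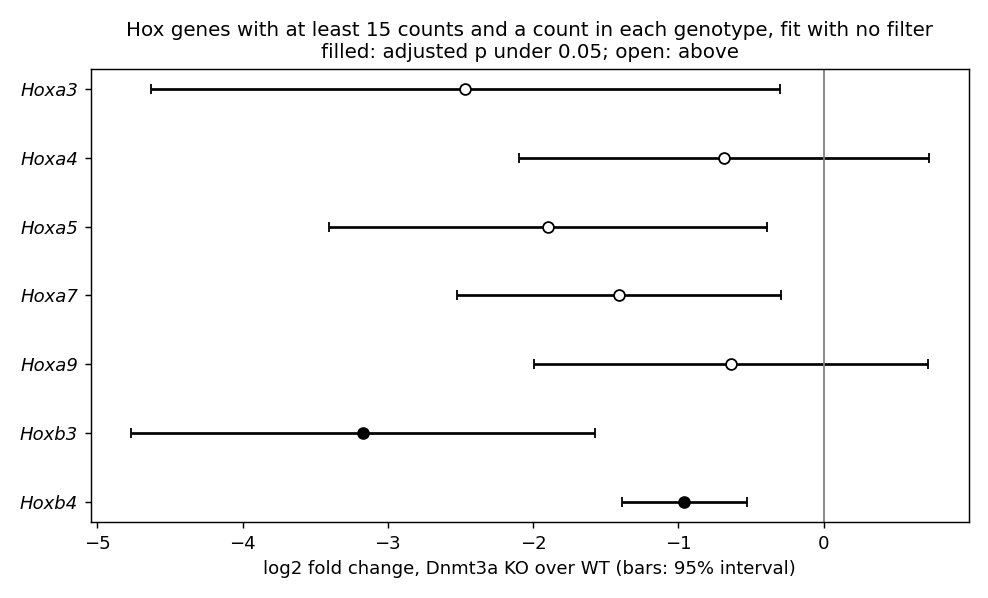
Log2 fold change, Dnmt3a KO over WT, with its 95% interval, for the 7 Hox genes described that had at least 15 counts in all and a count in each genotype, from the edgeR test with no filter on low counts. Filled points (Hoxb3 and Hoxb4) have an adjusted p under 0.05. The intervals of Hoxa4 and Hoxa9 include 0, and those of the other 5 lie below it.

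The other HoxB genes had at most 7 counts each over all 8 libraries. Hoxb7 had 0 counts in Dnmt3a KO and 7 in WT, 3 of them in replicate 1 and 4 in replicate 4. Hoxb1 had 5 counts in Dnmt3a KO and 0 in WT, and Hoxb9 had 3 in Dnmt3a KO and 0 in WT. Hoxb2 had 2 counts in each genotype, Hoxb5 had 2 in Dnmt3a KO and 4 in WT, and Hoxb8 had 1 in Dnmt3a KO and 3 in WT. Hoxb6 had 1 count in Dnmt3a KO and 0 in WT, and Hoxb13 had 1 in Dnmt3a KO and 2 in WT. None of these genes had counts in more than 3 libraries. A gene with 0 counts in Dnmt3a KO may still have stood at up to 0.0468 CPM, and one with 0 counts in WT at up to 0.0388 CPM (3 counts over the 4 libraries, counting error only).

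In HoxC, the most abundant genes were Hoxc6, with 5 counts in Dnmt3a KO and 4 in WT, and Hoxc8, with 3 in Dnmt3a KO and 6 in WT. Hoxc13, a gene of hair and nail, had 7 counts in Dnmt3a KO, in replicates 1 and 2, and 0 in WT. Hoxc10 had 3 counts in each genotype, Hoxc4 had 0 in Dnmt3a KO and 4 in WT, and Hoxc5 and Hoxc9 had 2 each in Dnmt3a KO and 0 in WT. Hoxc11 had 0 counts in Dnmt3a KO and 1 in WT. In HoxD, the largest total was 7 counts, for Hoxd4, with 3 in Dnmt3a KO and 4 in WT. Hoxd3 had 3 counts in Dnmt3a KO and 2 in WT, Hoxd9 had 3 in Dnmt3a KO and 1 in WT, and Hoxd10 had 2 in Dnmt3a KO and 1 in WT. Hoxd13 had 2 counts in Dnmt3a KO and 0 in WT, and Hoxd8 had 0 in Dnmt3a KO and 2 in WT. No difference in a HoxC or HoxD gene was detectable at this depth.

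Per kilobase of exon, the Hox genes stood low among the expressed genes of these cells. Hoxb4 was at 1.83 ± 0.353 CPM per kilobase in Dnmt3a KO and 3.55 ± 0.619 in WT (SD, n = 4 each). Of 11116 tested genes with a length, 23.5% were lower than Hoxb4 in Dnmt3a KO and 34.4% were lower in WT. Far lower in WT per kilobase were Hoxa7 at 0.363 ± 0.112, Hoxa5 at 0.346 ± 0.0745, Hoxa4 at 0.298 ± 0.126 and Hoxb3 at 0.224 ± 0.147. Neighbours in this order differ by less than the SD of either gene.

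Hoxb4 lies on chromosome 11 from 96318267 to 96321638 on the plus strand (GENCODE M21, the mm10 assembly). The library kit does not mark strand, so reads from a Hox gene and from a noncoding gene opposite it cannot be told apart. The noncoding gene Hotairm1 of the HoxA region is in the table under its older symbol Gm15051. In human myeloid cells its counterpart is induced during granulocyte differentiation. Gm15051 had 1.88, 0.924, 1.18 and 1.08 CPM in Dnmt3a KO replicates 1 to 4, against 2.03, 3.30, 3.21 and 3.32 CPM in WT replicates 1 to 4. The groups did not overlap, but Dnmt3a KO replicate 1 and WT replicate 1 were close. Its log2 fold change was -1.25 ± 0.30 (SE) with an edgeR adjusted p of 0.0698, so it was not called. It passed without the filter (adjusted p 0.0410), by DESeq2 (0.00513), which called 1.5% of genes lower, and without WT replicate 1 (0.0143). Gm15051 was not called by limma-voom (adjusted p 0.0599) or by edgeR with the replicate block (0.116). Without any other single library edgeR did not call it, with adjusted p up to 0.208.

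Mira, a noncoding gene at the Hoxa7 locus, had 0, 0.292, 0 and 0.228 CPM in Dnmt3a KO replicates 1 to 4 and 0.318, 0.508, 1.37 and 0.346 CPM in WT replicates 1 to 4. It was below the filter, and its libraries did not overlap. GENCODE counts its bases as part of Hoxa7, so the length and the reads of Hoxa7 depend on the annotation. Of 32 symbols in the list of noncoding genes of the clusters 17 were found, and Gm15051 was the 1 tested. The third in mean level, 0610040J01Rik, is on chromosome 5 and so belongs to no Hox cluster, with 21 counts in Dnmt3a KO and 19 in WT. The other 14 had under 8 counts each.

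Of 18 tested flanking genes, which RefSeq places within 776 kilobases of a cluster, 0 rose and 0 fell by edgeR, 2 had an unadjusted p under 0.05, and 1, Nfe2, was called higher by DESeq2 and by edgeR with no filter (adjusted p 0.0472). Their median log2 fold change was -0.02, against -0.02 over all tested genes. Skap2, beyond one end of HoxA, encodes an adaptor protein of myeloid cells. It had 290 ± 14.7 CPM in Dnmt3a KO and 265 ± 22.7 CPM in WT, with an edgeR adjusted p of 0.638. Tax1bp1, beyond the other end of HoxA, had 322 ± 34.8 CPM in Dnmt3a KO and 271 ± 55.2 CPM in WT. Atp5g3, on the HoxD side, had 225 ± 16.6 CPM in Dnmt3a KO and 241 ± 30.9 CPM in WT.

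Of 7 tested cofactor genes described here 0 rose and 0 fell by edgeR, 0 had an unadjusted p under 0.05, and DESeq2 and limma-voom called 0. Their median log2 fold change was -0.12. Pbxip1, which encodes a protein that binds PBX factors, had 122 ± 15.9 CPM in Dnmt3a KO and 131 ± 14.5 CPM in WT. Pbx2 had 49.5 ± 3.78 CPM in Dnmt3a KO and 54.7 ± 5.48 CPM in WT, and Pknox1 had 31.9 ± 5.37 CPM in Dnmt3a KO and 34.6 ± 5.82 CPM in WT. Meis1, named here after its values were seen because it acts with Hoxa9 in leukaemia, had 3.92 ± 1.03 CPM in Dnmt3a KO and 4.58 ± 0.323 CPM in WT, with an edgeR adjusted p of 0.708.

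**Figure D4:**
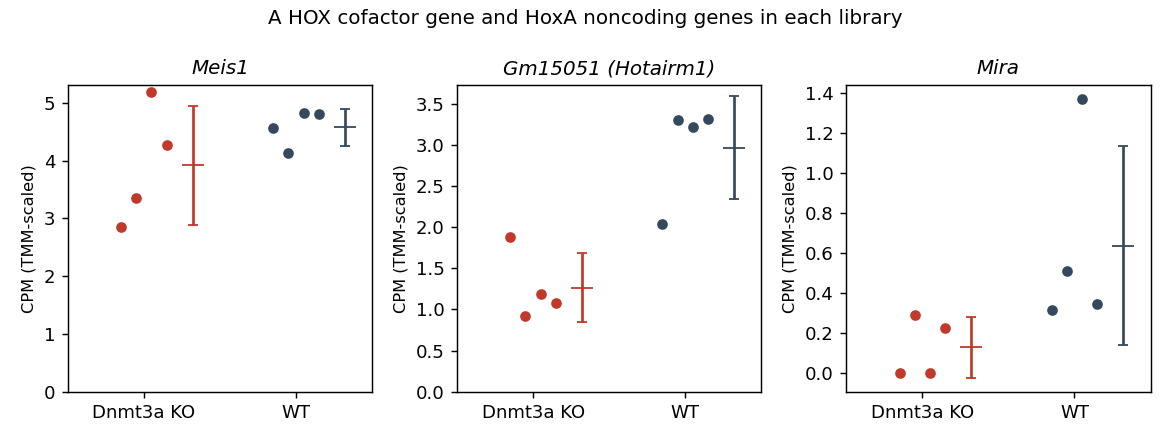
CPM of the cofactor gene Meis1 and of the HoxA noncoding genes Gm15051 (Hotairm1) and Mira in each library (points), with the mean and SD of 4 libraries for Dnmt3a KO and for WT. Each panel has its own linear axis. Gm15051 and Mira are lower in every Dnmt3a KO library than in any WT library, and the libraries overlap in Meis1.

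The next list held genes of MLL complexes, the linked elongation factors and other genes such as Setd2, Nsd1 and Nup98. Of its 22 tested genes 0 rose and 0 fell by edgeR, and 3 had an unadjusted p under 0.05, all lower in Dnmt3a KO. The median log2 fold change of the 22 was -0.01. Dot1l, which encodes the H3K79 methyltransferase that MLL fusions recruit, had 283 ± 22.4 CPM in Dnmt3a KO and 364 ± 31.2 CPM in WT, with an edgeR adjusted p of 0.121. Its groups did not overlap, and DESeq2 called it lower, the only gene of the list that it called. Mllt6 had 199 ± 18.8 CPM in Dnmt3a KO and 237 ± 25.4 CPM in WT. Aff1 had 250 ± 24.7 CPM in Dnmt3a KO and 216 ± 28.1 CPM in WT.

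Homeobox genes outside the Hox clusters were as sparse as HoxC and HoxD. Of 87 such genes 66 had under 8 counts over all libraries, against 26 of the 38 Hox genes. Only Six5 was tested, and edgeR did not call it, while DESeq2 called it lower. It had 0, 0.340, 0.394 and 0.171 CPM in Dnmt3a KO replicates 1 to 4 and 1.40, 0.762, 0.834 and 0.967 CPM in WT replicates 1 to 4, with a log2 fold change of -2.06 and an edgeR adjusted p of 0.106. Its groups did not overlap. Gbx2 had 40 counts in Dnmt3a KO and 47 in WT, and Dlx2 had 37 counts in Dnmt3a KO and 28 in WT.

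Because Hox RNA in marrow is best known from progenitors, markers of other cells are given beside these results. Of 12 tested stem and progenitor markers 0 were called by edgeR and 3 had an unadjusted p under 0.05, 2 higher and 1 lower. With no filter, the fit that called Hoxb3, edgeR called Ly6a higher (adjusted p 0.0125) and Gata2 lower (adjusted p 0.0132). Their list of 16 genes, none of them at 0, summed to 214 to 274 CPM in Dnmt3a KO libraries and 189 to 244 CPM in WT libraries. Ly6a had 79.2, 79.4, 56.3 and 105.2 CPM in Dnmt3a KO replicates 1 to 4 and 53.0, 38.9, 55.8 and 52.1 CPM in WT replicates 1 to 4, and DESeq2 called it higher. Procr had 78.7 ± 11.98 CPM in Dnmt3a KO and 62.4 ± 18.6 CPM in WT, and Cd34 had 36.9 ± 14.04 CPM in Dnmt3a KO and 44.6 ± 15.1 CPM in WT. Gata2, a transcription factor of stem cells and mast cells, was outside the naming rule and is named because DESeq2 and limma-voom called it lower. It had 3.31, 4.18, 3.31 and 6.48 CPM in Dnmt3a KO replicates 1 to 4 and 9.78, 8.13, 9.23 and 7.77 CPM in WT replicates 1 to 4, with an edgeR adjusted p of 0.0549. Its groups did not overlap, unlike the summed list. Of 10 neutrophil-lineage genes 5 rose by edgeR (S100a8, S100a9, Mmp8, Ngp and Elane) and 9 had an unadjusted p under 0.05, all higher. DESeq2 called 7 of the 10 higher, and the median log2 fold change of the list was 0.89. The list summed to 713 to 858 CPM in Dnmt3a KO and 276 to 415 CPM in WT. Of 5 tested stromal and endothelial markers 0 were called by edgeR, DESeq2 or limma-voom, and 1 had an unadjusted p under 0.05. That list of 11 genes, none of them at 0, summed to 29.6 to 36.4 CPM in Dnmt3a KO and 15.1 to 27.2 CPM in WT, most of it from Kdr, Pecam1 and Cdh5. The part of these cells in the Hox values was not tested.

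The authors' deposited table lists 8 of the 38 Hox genes. Its log2 fold change is positive for Dnmt3a, which was lower in Dnmt3a KO, so its values run the other way from those above. The authors' deposited table gives Hoxb4 a log2 fold change of 0.96 with an adjusted p of 0.000698. In the authors' deposited table Hoxb3 has a log2 fold change of 3.25 with an adjusted p of 0.0102, and Hoxa2 has one of 4.39 with 0.0696. By an adjusted p under 0.05, the authors' deposited table calls 507 genes, 3.15% of those it tests.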

How the data were processed

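Poly(A) RNA libraries of 8 macrophage cultures were counted per gene. Trimmomatic 0.39, STAR 2.7.0a, featureCounts and build mm10 are named in the submitters' processing notes, while the counting settings and annotation are not stated there. The deposited values are raw read counts. The authors also deposited a comparison table with a mean normalised signal, a log2 fold change, a test score and p-values, whose header has DESeq2's column names. It was used only to set its values beside those computed here.

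Genes were filtered (edgeR 4.0.16 filterByExpr, minimum count 10), scaled by TMM and tested for genotype with edgeR's quasi-likelihood test in R 4.3.3, with Benjamini-Hochberg adjustment over all tested genes. CPM uses TMM-scaled totals. The standard error is the log2 fold change over the square root of F. The test with the filter was checked on simulated counts, and the fit with no filter was not. Alternatives were other scalings and filters, DESeq2 1.42.0, limma-voom (limma 3.58.1), a replicate block and leaving out each library. Lengths are the union of exons in GENCODE M21.

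Of the 39 genes, 38 were reported, those that passed the filter with every library and the others by counts; 1 Hox gene and 1 cofactor gene stayed in every fit and are not reported here. From each other list, called genes were named, or else up to 3 with the highest mean CPM. Lyz2, Mertk, Nfe2 and Gata2 were named after their values were seen. The members and lists were chosen with earlier results of these data known. In 25 rows a date stands in place of a symbol. No pair of libraries of a genotype was alike within sampling noise. WT replicate 1 stood furthest from its group, at a mean chi-square per gene of 61.2 to 111.7 with the other WT libraries. Among WT replicates 2 to 4 that value was 6.78 to 13.9.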

Additional observations from a re-analysis of the deposited data

Results flagged for a closer look

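In 35 groups of 4 libraries, 1 library's gap to the others was large against the group's range in 5 cases. The rule's chance rate of about 1 in 20 assumes normal values and does not hold for sparse counts. A group with all its counts in 1 library is always flagged, so the 5 cases cannot be set against that rate. Gm15051 (Hotairm1) was at 2.03 CPM in WT replicate 1, against 3.21 to 3.32 CPM in the other WT libraries. The summed HoxD level was 0.292 CPM in Dnmt3a KO replicate 2, with 6 counts, against 0.150 to 0.171 CPM in the others. In the other 3 cases all counts of the group were in 1 library: Hoxa6 at 0.298 CPM in WT replicate 3, Hoxa10 at 0.0569 CPM in Dnmt3a KO replicate 4 and Hoxc6 at 0.284 CPM in Dnmt3a KO replicate 4.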

How the results depend on the processing

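Hoxb4 kept its call under the other scalings and filters, with DESeq2, limma-voom and the replicate block. It ranged from -1.09 to -0.86 with single libraries left out and lost its call in 5 of these 8 fits. Of the 38 Hox genes described, 0 to 1 were then called, and 0 to 3 with no filter, an alternative chosen after seeing the data, with 0 without Dnmt3a KO replicate 2. Hoxb3 with no filter ranged from -3.80 to -2.67 and lost its call in 3 of 8 fits. The number of Hox genes that passed the filter was 33 with no filter and 2 to 3 with single libraries left out. The number of genes called was 201, against 399 with no filter, 551 with DESeq2, 260 with the replicate block and 103 to 484 with single libraries left out, the highest without WT replicate 1. Replicates with the same number correlated in their deviations at r = 0.25, 0.28, 0.07 and -0.02. Replicates with different numbers were not set beside these, so pairing by number was not tested. The block changed no call of these Hox genes. The causes of the lost calls were not tested. At these depths 37 of 38 Hox genes were too sparse for the filter, so changes in them would mostly not be detectable.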
